A study of Homo sapiens with 8 samples.

Results

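The genes of 10 amino acid transporters were followed in ribosome profiling data from IMR32 cells, a human neuroblastoma line with amplified MYCN. They are SLC7A1, SLC7A3, SLC3A2, SLC7A5, SLC7A11, SLC1A4, SLC1A5, SLC38A1, SLC38A2 and SLC6A9. They were taken by name and matched by Ensembl identifier, version ignored, to 10 of the 60651 genes in the deposited table. Ribosome profiling sequences the short mRNA pieces that ribosomes protect from nuclease, and the table gives them as TPM, a level corrected for transcript length and set to the same total in every library.

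The study compared wild-type IMR32 cells exposed for 6 h to CR31B (n = 4 libraries) with cells given its solvent DMSO (n = 4 libraries). CR31B is an analog of silvestrol, a rocaglate that acts on eIF4A, the RNA helicase that opens the 5′ ends of mRNAs before ribosomes load. Cells of both groups received cycloheximide, which arrests elongating ribosomes, just before harvest, so that the controls carry it too. All libraries come from 1 cell line, and the series describes 4 biological replicates without saying what a replicate number stands for. Which library was read in which sequencing run is not given in the sources used here. No RNA abundance was analysed here, so a change in mRNA amount and a change in ribosomes per mRNA cannot be told apart. Nor can fewer cells and less RNA per cell be told apart in bulk samples. As every library is set to the same total, a rise or fall below is in a gene's share of its library's footprints. A change in total translation cannot be seen, so a gene that rose may still carry fewer footprints per cell.

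Amino acid transporters work in families with distinct substrates. The heavy chain SLC3A2 (4F2hc, CD98) carries light chains to the cell surface: with SLC7A5 (LAT1) it forms the exchanger that imports leucine and other large neutral amino acids, and with SLC7A11 (xCT) the exchanger that imports cystine for glutathione. SLC7A1 and SLC7A3 (CAT1 and CAT3) import arginine and lysine. SLC1A4 and SLC1A5 (ASCT1 and ASCT2) exchange small neutral amino acids, and SLC1A5 also carries glutamine. SLC38A1 and SLC38A2 take up neutral amino acids with sodium, and SLC6A9 (GLYT1) imports glycine. Several of these genes are known targets of ATF4, a transcription factor whose own mRNA is translated preferentially when amino acids are scarce.

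The libraries held from 17857 to 22270 genes above 0, with 51.8% to 61.3% of TPM on protein-coding genes, the highest share being that of CR31B replicate 1. Read number was estimated from the value that 1 read adds in each library, as a percentage of the deepest, DMSO replicate 2. By replicate number from 1 to 4 it was 67.6%, 59.3%, 48.1% and 54.3% in CR31B and 76.8%, 100%, 57.8% and 88.1% in DMSO. In every pair both read number and genes above 0 were lower in CR31B, so depth differed between the groups. The labels give the tissue as brain and the cell type as neuroblast. Of 11 markers of sympathetic neuroblasts 10 had a mean of at least 1 TPM, and their sum ran from 1300 to 1870 TPM in CR31B and from 1220 to 1450 TPM in DMSO. The 3 leukocyte markers summed to at most 0.24 TPM and the 2 astrocyte markers to at most 0.09 TPM in any library, with CD3E at 0 in all. Sums ran from 0.61 to 2.07 TPM for 4 Schwann cell markers (SOX10 at 0 in all libraries) and from 0.35 to 1.01 TPM for 3 endothelial markers (PECAM1 at 0). Mesenchymal markers summed to between 35.4 and 55.2 TPM, most of it TWIST1, and the neuron marker RBFOX3 carried most of a sum of 13.2 to 25.0 TPM. None of these marker lists was tested for a part in the results.

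In DMSO the 10 transporters spanned several orders of level in TPM. TPM divides by transcript length, while footprints lie mainly on the coding part, so levels compare only roughly between genes. SLC38A2 was highest at 245.6 ± 29.9 TPM (SD, n = 4), followed by SLC3A2 at 114.6 ± 10.2 TPM. SLC1A5, SLC38A1 and SLC7A1 came next, with means of 52.5, 45.4 and 40.5 TPM and ranges that overlapped from each to the next. SLC7A5 and SLC1A4 followed at 10.98 and 10.4 TPM, also with overlapping ranges. SLC7A11 was at 1.92 TPM, SLC6A9 at 0.56 TPM and SLC7A3 at 0.02 TPM. Between neighbours in this order the ranges did not overlap from SLC38A2 to SLC3A2, from SLC3A2 to SLC1A5, from SLC7A1 to SLC7A5, from SLC1A4 to SLC7A11, from SLC7A11 to SLC6A9 and from SLC6A9 to SLC7A3.

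**Figure D1:**
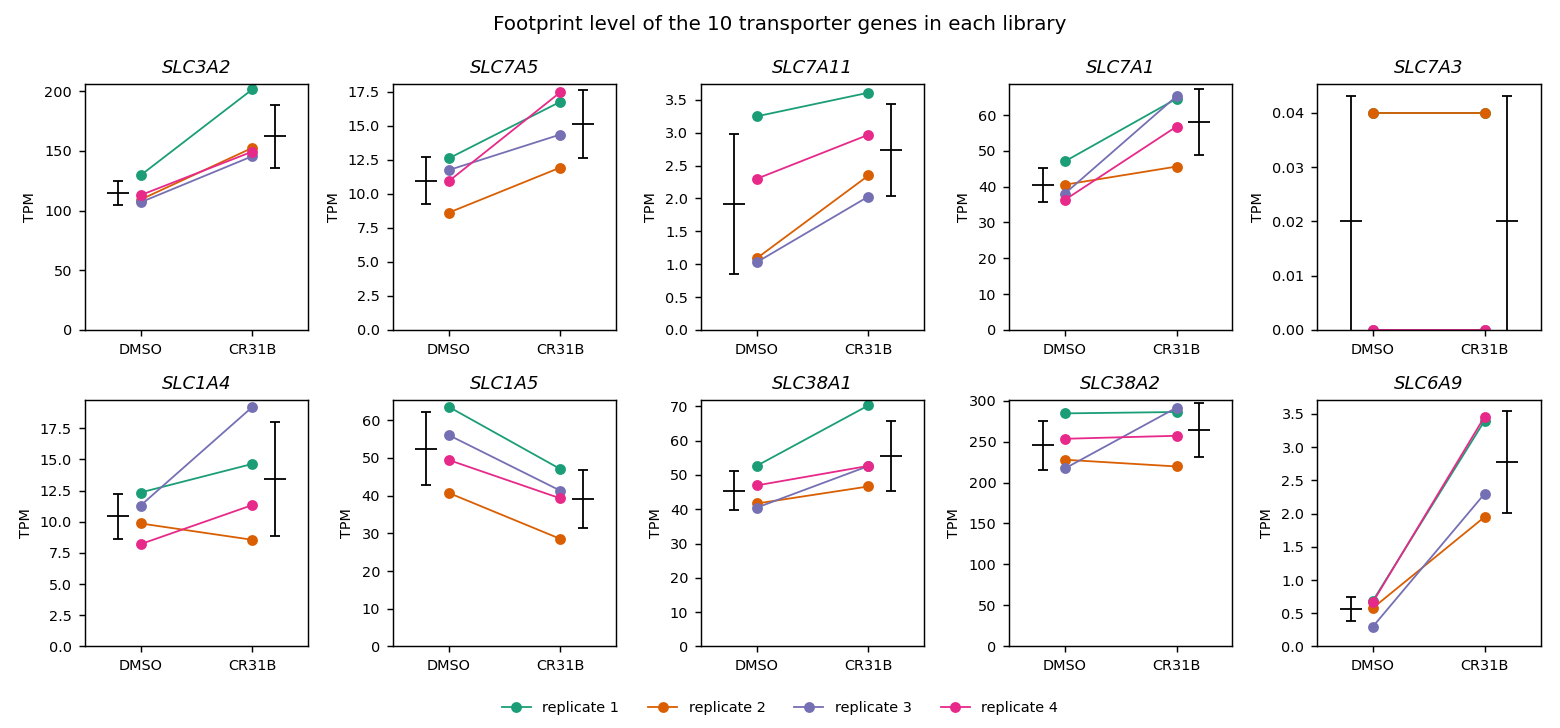
Footprint level (TPM, linear axes from 0) of the 10 transporter genes in the 4 DMSO and 4 CR31B libraries; lines join libraries with the same replicate number, and black bars are the mean and SD of each group (for SLC7A3 the bars run past the axis, and replicates 1 and 2, and 3 and 4, coincide). SLC3A2 and SLC6A9 do not overlap between the groups, while SLC1A5 is the one gene lower in CR31B in every pair.

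The comparison asked how footprints on these transporters differed after CR31B. Of the 9 members with a mean of at least 1 TPM (SLC6A9 only through its CR31B libraries), 8 had a positive log2 fold change, against 54.1% of the 11778 genes tested. The members' median log2 fold change was 0.41, and that of all tested genes was 0.03. The members, and the gene lists further below, were chosen with earlier results of these data known. Their contrasts with all tested genes are therefore descriptions and not independent tests. Under limma with Benjamini-Hochberg adjustment over all tested genes, 2 members rose, SLC3A2 and SLC6A9, against 3.45% of genes called higher. No member was called lower (4.02% of genes were). An unadjusted limma p under 0.05 was reached by 5 members, 1 of them lower in CR31B, and by 23.4% of all genes that were tested. When the replicate number was a block, 4 members were called higher (5.77% of genes) and 1 lower (6.56%). SLC7A1 and SLC7A5 joined the higher calls, and SLC1A5 was the lower one. The groups did not overlap for 2 members, both higher in CR31B (8.07% of genes), and for no member lower (8.14%). In all 4 replicate pairs 6 members were higher in CR31B (20.1% of genes) and 1 was lower (18.0%). Summed over the 10 genes, footprints came to 612.5 ± 79.6 TPM with CR31B and 522.6 ± 58.7 TPM without, or 0.113% ± 0.009 and 0.0939% ± 0.00689 of protein-coding TPM (SD, 4 libraries each). That sum was higher in 4 of 4 pairs and, as it is dominated by SLC38A2 and SLC3A2, was not tested.

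**Figure D2:**
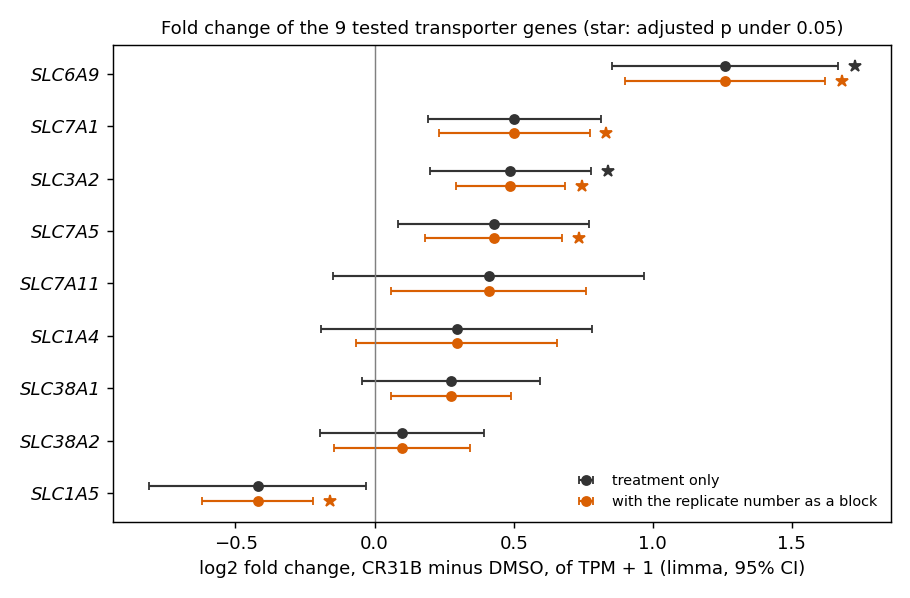
Log2 fold change (CR31B minus DMSO, of TPM + 1) of the 9 tested transporter genes with 95% confidence intervals, from limma with treatment only (black) and with the replicate number as a block (orange); stars mark an adjusted p under 0.05. SLC6A9 has the largest estimate, 1.26, and SLC1A5 the only negative one, -0.42.

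ATF4 and NFE2L2 are each known to act on some of these genes, though not on all. The promoter windows of RefSeq (GRCh38.p14, 250 bases before to 50 after an annotated start) were therefore searched for their core motifs. Of the 10 genes 8 matched, with 14 windows, and the others are SLC7A3 and SLC7A11. TGATGNAA, the core shared by sites for ATF4 with C/EBP proteins, occurred on either strand in 3.62% of 35116 windows and in 5 of the 14 windows, of SLC7A1, SLC3A2, SLC1A4, SLC1A5 and SLC38A1. TGACNNNGC, the core of the antioxidant response element that NFE2L2 binds, occurred in 13.3% of all windows and in 4 of the 14, of SLC7A1, SLC3A2, SLC7A5 and SLC1A5. The sequences below show 7 of these 9 matches in capitals, all 5 of the first motif and, of the second, those of SLC3A2 and SLC7A5, read 5′ to 3′ along the gene (in SLC3A2 and SLC1A4 the first motif lies on the other strand).
SLC7A1, chr13:29595663-29595692, minus strand, TGATGNAA: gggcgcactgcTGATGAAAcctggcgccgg
SLC38A1, chr12:46266502-46266531, minus strand, TGATGNAA: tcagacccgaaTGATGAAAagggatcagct
SLC1A5, chr19:46784893-46784922, minus strand, TGATGNAA: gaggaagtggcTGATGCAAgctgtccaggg
SLC1A4, chr2:64989381-64989410, plus strand, TGATGNAA: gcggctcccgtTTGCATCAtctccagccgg
SLC3A2, chr11:62881725-62881748, plus strand, TGATGNAA: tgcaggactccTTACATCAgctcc
SLC3A2, chr11:62881652-62881681, plus strand, TGACNNNGC: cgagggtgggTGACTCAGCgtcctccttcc
SLC7A5, chr16:87869490-87869519, minus strand, TGACNNNGC: gcggggttccTGACGCAGCtgcgggcggcg
In SLC7A1 the match starts 8 bases after the annotated start, and in SLC38A1 and SLC1A4 4 and 7 bases before one. The 2 SLC3A2 matches lie around 1 of its 3 annotated starts, 37 bases before it and 38 after it. The windows of SLC6A9 and SLC38A2 held neither motif, which says only that these letters are not there. Rocaglates are known to clamp eIF4A onto runs of purines, so the longest run of A and G among the first 50 transcribed bases was also read. The median of all windows was 5 bases, and the 14 windows ran from 3 to 12. The longest, 12 bases, was in 1 of the 2 SLC38A1 windows, outside the stretch shown (4.12% of windows reach it), and a SLC1A5 window had 9 (13.7%). The SLC3A2 windows had 8 (21.0%), 5 and 4 bases, the last in the window that holds both motifs. The other SLC1A5 windows had 6 and 4, the SLC1A4 windows 7 and 3, and the other SLC38A1 window 7. SLC6A9 had 7 (31.8%). SLC7A1 and SLC38A2 had 4 bases and SLC7A5 had 3, below the median.

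The heavy chain SLC3A2 (ENSG00000168003.18, chr11:62856102-62888875, plus strand, GRCh38) rose under CR31B. By replicate number from 1 to 4, the order used throughout, the CR31B libraries stood at 202, 153, 146 and 149 TPM and the DMSO libraries at 129.6, 109, 107 and 113 TPM. Every CR31B library was above every DMSO library, and CR31B replicate 1 stood apart from its group. The group means were 162 ± 26.3 TPM with CR31B and 115 ± 10.2 TPM without (SD, 4 libraries each). This gave a log2 fold change of 0.49 (95% confidence interval 0.20 to 0.78, SE 0.13; adjusted p of 0.0488 by limma, exact permutation p of 0.0286, the smallest that 4 against 4 allows). With the block the limma adjusted p was 0.0142. The unblocked call lies close to its threshold: leaving out any 1 of the 8 libraries gave a limma adjusted p between 0.0614 and 0.123, with the fold change positive each time.

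Both light chains of SLC3A2 measured here had positive fold changes, without passing the unblocked test. SLC7A5 (ENSG00000103257.9, chr16:87830023-87869488, minus strand) stood at 16.8, 11.9, 14.4 and 17.5 TPM in CR31B and at 12.6, 8.62, 11.8 and 10.9 TPM in DMSO. The groups overlapped, since CR31B replicate 2 lay below DMSO replicate 1, but each CR31B library was above the DMSO library of its number. The log2 fold change came to 0.43 (SE 0.16) with a 95% confidence interval from 0.08 to 0.77 (limma adjusted p of 0.128, and 0.0407 with the block). Reads that fit SLC7A5 and its copies SLC7A5P1 and SLC7A5P2 equally well cannot be placed from the deposited values. The copies stood at no more than 1.66 TPM in any library, and adding their reads to SLC7A5, chosen after seeing the data, left its log2 difference at 0.43 (exact permutation p of 0.0571).

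SLC7A11 (ENSG00000151012.13, chr4:138164097-138242349, minus strand) was far below its heavy chain in TPM. Its coding transcript is 9645 nt long, against a median of 1393 nt for SLC3A2, so division by length widens that gap. SLC7A11 stood at 3.61, 2.35, 2.03 and 2.97 TPM in CR31B and at 3.25, 1.09, 1.03 and 2.30 TPM in DMSO. In both groups replicates 1 and 4 were the higher ones, and the groups overlapped although each CR31B library exceeded its DMSO counterpart. The log2 fold change of 0.41 had a 95% confidence interval from -0.15 to 0.97 (limma adjusted p of 0.366, and 0.119 with the block). Its antisense gene SLC7A11-AS1, which overlaps 865 exonic bases, was listed at 0.02 TPM or less.

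Within a library the light chains did not move apart from SLC3A2 by a detectable amount. Log2(TPM + 1) of SLC7A5 minus that of SLC3A2 averaged -3.34 ± 0.25 with CR31B and -3.28 ± 0.18 without (SD, 4 libraries each; p = 0.83, exact permutation test). For SLC7A11 the same difference averaged -5.45 ± 0.151 and -5.38 ± 0.411 (exact permutation p of 0.743). Adjusted over the 5 within-library differences computed, both had p = 0.83 (exact permutation test).

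Protein-coding genes whose levels, relative to their DMSO means, lay nearest to those of SLC3A2 over the 8 libraries were MRPL54, NOB1, NEU3, TLE1 and NAA20, of 10373 compared. Their mean absolute differences from SLC3A2 ran from 0.0455 for MRPL54 to 0.0613 for NAA20 on the log2 scale. Their log2 fold changes ran from 0.43 to 0.52. These are a description of likeness, without a test.

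Of the cationic transporters, SLC7A1 (ENSG00000139514.13, chr13:29509410-29595688, minus strand) was the one with a substantial footprint level. It stood at 64.6, 45.6, 65.3 and 56.8 TPM in CR31B and at 47.1, 40.6, 38.1 and 36.3 TPM in DMSO. Only CR31B replicate 2 lay within the DMSO range, just under DMSO replicate 1. Means were 58.1 ± 9.14 and 40.5 ± 4.71 TPM (SD, n = 4 each), giving a log2 fold change of 0.50 (SE 0.14) with a 95% confidence interval from 0.19 to 0.81. The limma adjusted p was 0.0562, and 0.0339 with the block, and the call depended on such choices. It also passed unblocked with a minimum mean of 10 TPM (limma adjusted p of 0.0414), after rescaling over protein-coding genes (limma adjusted p of 0.0173) and after quantile normalization (limma adjusted p of 0.0291). Without CR31B replicate 2 the unblocked limma adjusted p was 0.0263. SLC7A3 (ENSG00000165349.12, chrX:70925582-70931125, minus strand) was listed at 0.04 TPM in replicates 1 and 2 and at 0 in replicates 3 and 4 of both groups. That corresponds to between 0 and 8 estimated reads per library, too few for a comparison.

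SLC6A9, the glycine transporter (ENSG00000196517.13, chr1:43991500-44031467, minus strand), rose most among the members. It stood at 3.40, 1.95, 2.30 and 3.46 TPM in CR31B and at 0.69, 0.58, 0.30 and 0.67 TPM in DMSO. The lowest CR31B library was well above the highest DMSO library. The means of 2.78 ± 0.767 TPM with CR31B and 0.56 ± 0.18 TPM without (SD, 4 libraries each) had a ratio of 4.96. As log2(TPM + 1), a scale that compresses the change of so low a gene, the fold change was 1.26 (95% confidence interval 0.85 to 1.67, SE 0.18; adjusted p of 0.00382 by limma, exact permutation p of 0.0286). It rested on an estimated 207 to 431 reads per CR31B library and 33 to 110 per DMSO library, taking 2044 nt as transcript length. With a DMSO mean below 1 TPM, it met the filter through its CR31B libraries, so it had to differ to be tested. It passed in all 16 alternatives that tested it, including the one with no filter beyond a mean above 0 TPM (limma adjusted p of 0.0253), with log2 fold changes from 1.17 to 2.13. CCDC24 on the opposite strand, which shares 404 exonic bases with SLC6A9, stood at 0.28 TPM or less.

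Among the neutral amino acid exchangers, SLC1A4 (ENSG00000115902.11, chr2:64988477-65023865, plus strand) varied most, relative to its mean, between libraries of the CR31B group. It stood at 14.6, 8.55, 19.2 and 11.3 TPM in CR31B and at 12.3, 9.86, 11.3 and 8.20 TPM in DMSO. The groups overlapped, and replicate 2 was lower in CR31B than in DMSO. A log2 fold change of 0.30 (SE 0.22) had a 95% confidence interval from -0.19 to 0.78 (limma adjusted p of 0.462).

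SLC1A5 (ENSG00000105281.12, chr19:46774883-46788594, minus strand), the glutamine exchanger, was the one member with lower deposited values in CR31B. It stood at 47.1, 28.5, 41.3 and 39.3 TPM in CR31B and at 63.6, 40.7, 56.1 and 49.5 TPM in DMSO. Each CR31B library was below its DMSO counterpart, while the groups overlapped. Means were 39.1 ± 7.74 and 52.5 ± 9.71 TPM (SD, n = 4 each), giving a log2 fold change of -0.42 (SE 0.18) with a 95% confidence interval from -0.81 to -0.03. The limma adjusted p was 0.182, and 0.0227 with the block.

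This value depends on how reads were divided at the locus. The exons of AC008622.2 (ENSG00000275719.1, chr19:46787815-46789043), an antisense gene in GENCODE 29, share 780 bases with SLC1A5, or 23.41% of its exonic bases. Whether the counting used strand is not given in the sources used here, and reads of the shared stretch can then not be told apart. AC008622.2 stood at 47.8, 41.8, 92.4 and 40.2 TPM in CR31B and at 0, 30.5, 42.2 and 15.3 TPM in DMSO. It was higher in CR31B in every pair, against the direction of SLC1A5, with overlapping groups (log2 fold change 2.13 with an SE of 0.97, limma adjusted p of 0.216). Without DMSO replicate 1, where AC008622.2 was at 0, its log2 fold change was 0.92 (SE 0.36, limma adjusted p of 0.19). If all its reads were counted as SLC1A5, an alternative chosen after seeing the data, SLC1A5 would stand at 79.2, 56.6, 103 and 66.3 TPM in CR31B and 63.6, 61.2, 84.5 and 59.8 TPM in DMSO. The log2 difference is then 0.16 and the groups overlap (exact permutation p of 0.543). That alternative is an upper limit, since the length used for AC008622.2 was 1227 nt and only 780 bases are shared. How far reads of the shared stretch alone would move SLC1A5 was not tested, so its direction is not settled by these values.

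**Figure D3:**
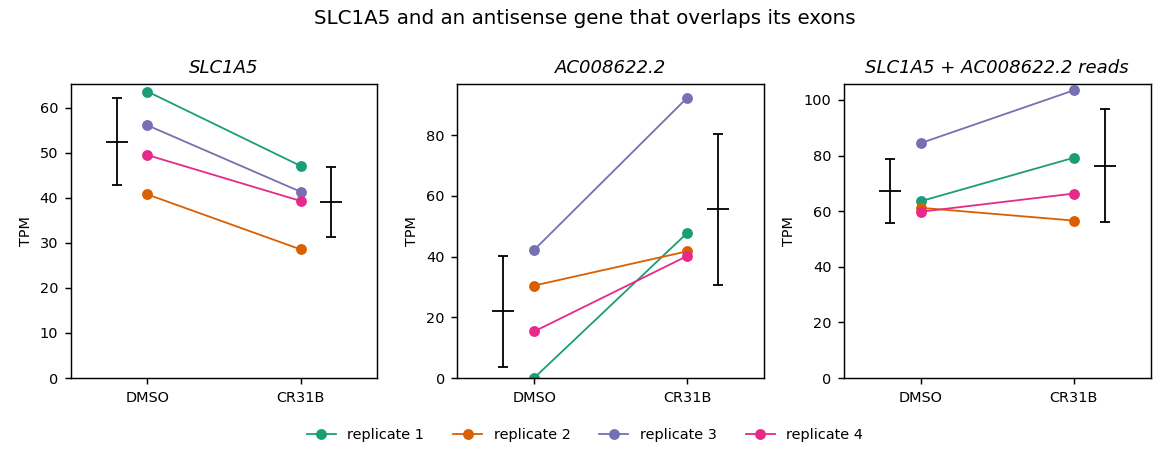
Footprint level (TPM, linear axes from 0) of SLC1A5, the antisense gene AC008622.2, and SLC1A5 with the reads of AC008622.2 added in each library; lines join libraries with the same replicate number and black bars are mean and SD. SLC1A5 is lower in CR31B in 4 of 4 pairs as deposited and higher in 3 of 4 once all those reads, also those outside the shared stretch, are added.

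Within libraries SLC1A4 stood nearer to SLC1A5 in CR31B by the deposited values. Log2(TPM + 1) of SLC1A4 minus that of SLC1A5 was -1.62, -1.63, -1.07 and -1.71 in CR31B and -2.28, -1.94, -2.22 and -2.46 in DMSO, without overlap. The means differed by 0.72, with an exact permutation p of 0.0286, and of 0.143 adjusted over the 5 differences. Without CR31B replicate 3 they differed by 0.57 (exact permutation p of 0.0571). With all AC008622.2 reads added to SLC1A5 the difference was 0.14 (exact permutation p of 0.343).

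Neither SLC38 transporter passed the test. SLC38A2 (ENSG00000134294.14, chr12:46358189-46372867, minus strand), the most abundant member, stood at 286, 219.6, 291 and 257 TPM in CR31B and at 284, 228, 217 and 253 TPM in DMSO. The groups overlapped over most of their range. The estimate of 0.10 on the log2 scale (SE 0.13) had a 95% confidence interval from -0.20 to 0.40 (limma adjusted p of 0.706). SLC38A1 (ENSG00000111371.16, chr12:46183063-46270017, minus strand), its neighbour on chromosome 12, stood at 70.3, 46.7, 52.6 and 52.7 TPM in CR31B and at 52.7, 41.7, 40.5 and 46.95 TPM in DMSO. It was higher in CR31B in 4 of 4 pairs, mostly by a small amount, and the groups overlapped. The estimate was 0.28 (SE 0.14), with a 95% confidence interval from -0.05 to 0.60 (limma adjusted p of 0.285, and 0.0949 with the block). Within a library SLC38A2 minus SLC38A1 averaged 2.23 ± 0.18 with CR31B and 2.41 ± 0.0113 without (SD, 4 libraries each; p = 0.143 by the exact permutation test, 0.238 adjusted over the 5 differences). Without CR31B replicate 3 the means differed by -0.25 (unadjusted exact permutation p of 0.0286).

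Fold changes of other amino acid transporters were mostly negative. Of 46 listed, 13 were at 0 in all libraries and 21 were tested. Their median log2 fold change was -0.26, with 6 above 0, where all tested genes had a median of 0.03. By limma at adjusted p under 0.05, 1 rose (3.45% of all tested genes did) and 3 fell (4.02%). With the block 2 rose (5.77%) and 4 fell (6.56%), which added CTNS and SLC1A2. SLC6A15, a transporter of branched-chain amino acids and proline in neurons, stood at 218, 235.5, 235 and 184 TPM in CR31B and at 93.1, 147, 109.9 and 96.9 TPM in DMSO. The groups lay apart (log2 fold change 0.98 with an SE of 0.16, limma adjusted p of 0.00589).

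The transporters that fell carry taurine, glutamate and lysosomal glutamine. SLC6A6, the taurine transporter, stood at 12.2, 12.2, 9.37 and 13.4 TPM in CR31B and at 31.8, 25.1, 23.7 and 32.6 TPM in DMSO (log2 fold change -1.19 with an SE of 0.15, limma adjusted p of 0.00193). SLC38A7, which exports glutamine from lysosomes, stood at 5.70, 6.52, 7.27 and 5.00 TPM against 12.2, 12.5, 11.9 and 11.3 TPM in DMSO (log2 fold change -0.87 with an SE of 0.13, limma adjusted p of 0.00407). SLC1A3, a glutamate transporter best known from glia, stood at 2.88, 2.77, 1.78 and 3.19 TPM against 6.52, 5.40, 4.71 and 3.86 TPM in DMSO (log2 fold change -0.74 with an SE of 0.18, limma adjusted p of 0.0332). Each of the 3 had every CR31B library below every DMSO library, as did 8.14% of all tested genes. The SLC1A3 call was lost in the 7 of 8 fits that left out a library other than DMSO replicate 4 (limma adjusted p from 0.0524 to 0.0969).

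**Figure D4:**
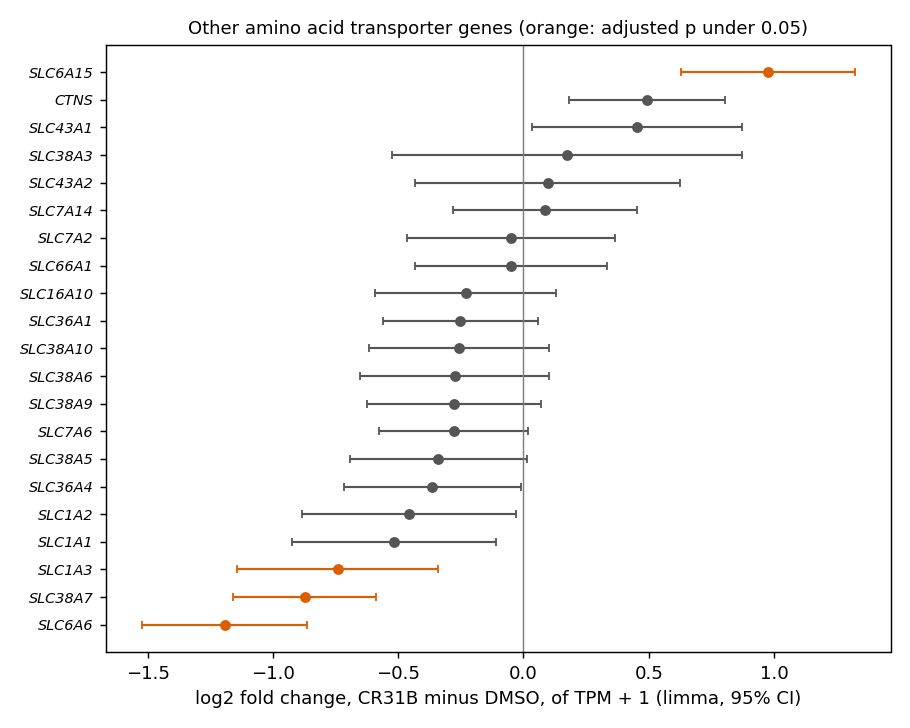
Log2 fold change (CR31B minus DMSO, of TPM + 1) with 95% confidence intervals for 21 other amino acid transporter genes tested by limma; orange marks an adjusted p under 0.05. SLC6A15 is the only orange point right of 0, and SLC6A6, SLC38A7 and SLC1A3 lie left of it.

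The mitochondrial amino acid carriers showed no call. Of 9 listed 7 were tested and none passed limma (median log2 fold change 0.15). None had an unadjusted limma p under 0.05, where 23.4% of all tested genes did.

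Of 13 transcription factors and partners known to act on transporter genes, 12 were tested, with a median log2 fold change of 0.33. By limma 3 rose (ATF3, CEBPB and ATF4, against 3.45% of all tested genes) and none fell (4.02%). An unadjusted limma p under 0.05 was reached by 7 (23.4% of genes). With the block 4 were called higher (5.77%) and 1 lower (6.56%). ATF3, an early stress-response factor, rose most, from 6.26, 3.99, 5.35 and 5.08 TPM in DMSO to 11.7, 15.9, 19.97 and 9.65 TPM in CR31B (log2 fold change 1.27 with an SE of 0.21, limma adjusted p of 0.00688). ATF4 stood at 313, 204, 280.0 and 309 TPM in CR31B and at 172, 176, 106 and 181 TPM in DMSO. Its groups did not overlap, and DMSO replicate 3 was the low one (log2 fold change 0.81 with an SE of 0.20, limma adjusted p of 0.0338). TPM per gene does not show where on the mRNA the footprints lie. Whether the ATF4 rise lies in its coding part was not tested. NFE2L2, the activator of antioxidant genes, averaged 34.4 ± 7.07 TPM with CR31B and 25.4 ± 0.873 TPM without it (SD, 4 libraries each), without passing (log2 fold change 0.41, limma adjusted p of 0.115). MYCN stood at 1070.1, 595, 1076 and 825 TPM in CR31B and at 636, 542, 647 and 548 TPM in DMSO, overlapping (log2 fold change 0.55, limma adjusted p of 0.110, and 0.0301 with the block). The ATF4 call was lost when any 1 library other than CR31B replicate 2 or DMSO replicate 3 was left out (limma adjusted p from 0.0604 to 0.0906). NFE2L2 passed without CR31B replicate 1 (limma adjusted p of 0.0483) and MYCN without CR31B replicate 2 (limma adjusted p of 0.0245).

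Genes of glutathione synthesis and cystine use, a list that holds SLC3A2 and SLC7A11 themselves, moved both ways. All 11 were tested, with a median log2 fold change of -0.08. By limma 2 rose (CHAC1 and SLC3A2, against 3.45% of all tested genes) and 2 fell (GCLM and GCLC, against 4.02%). CHAC1, which degrades glutathione, stood at 5.67, 4.30, 4.76 and 6.11 TPM in CR31B and at 1.51, 0.90, 0.96 and 0.88 TPM in DMSO (log2 fold change 1.59 with an SE of 0.16, limma adjusted p of 0.000673). GCLM, the modifier subunit of the enzyme that starts glutathione synthesis, stood at 7.68, 7.47, 6.55 and 7.51 TPM against 11.4, 11.5, 14.7 and 14.2 TPM in DMSO (log2 fold change -0.74 with an SE of 0.13, limma adjusted p of 0.00789). For neither gene did the groups overlap. GCLC was no longer called without CR31B replicate 2, 3 or 4 or DMSO replicate 2 or 4 (limma adjusted p from 0.054 to 0.0688).

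Of the proteins that sense amino acids for mTORC1, 27 of 28 listed were in the table and 25 were tested. SESN2 and MIOS rose (3.45% of all tested genes did) and RRAGA fell (4.02%), with a median log2 fold change of -0.17. With the block 1 was higher (5.77% of genes) and 1 lower (6.56%). SESN2, a leucine sensor, stood at 2.05, 1.61, 1.91 and 2.12 TPM in CR31B and at 0.86, 0.55, 0.54 and 0.66 TPM in DMSO (log2 fold change 0.82, limma adjusted p of 0.009). It too met the filter only through its CR31B libraries. RRAGA, a Rag GTPase that brings mTORC1 to the lysosome, stood at 20.7, 16.7, 15.0 and 18.9 TPM against 29.3, 21.5, 28.9 and 27.9 TPM in DMSO (log2 fold change -0.57, limma adjusted p of 0.0354). RRAGA lost its call when any 1 library other than CR31B replicate 1 or DMSO replicate 2 was left out (limma adjusted p from 0.0692 to 0.106), and MIOS when any 1 other than CR31B replicate 4 was (limma adjusted p from 0.059 to 0.12).

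Among 12 genes of transporter trafficking and turnover 10 were tested, with a median log2 fold change of 0.26. By limma 2 rose (NEDD4 and SLC16A3, against 3.45% of all tested genes) and 2 fell (LAPTM4B and NEDD4L, against 4.02%). SLC16A3, which averaged 1.68 TPM with CR31B and 0.70 TPM without, met the filter only through its CR31B libraries. NEDD4, a ubiquitin ligase for membrane proteins, stood at 8.05, 9.55, 8.46 and 5.98 TPM in CR31B and at 3.20, 4.96, 5.62 and 3.36 TPM in DMSO (log2 fold change 0.78 with an SE of 0.19, limma adjusted p of 0.0331). LAPTM4B, a lysosomal membrane protein known to recruit the SLC7A5 and SLC3A2 complex to lysosomes, fell. It stood at 74.5, 64.9, 66.3 and 54.1 TPM in CR31B and at 205, 172, 156 and 178 TPM in DMSO (log2 fold change -1.44 with an SE of 0.13, limma adjusted p of 0.000443). NEDD4 lost its call when any 1 library other than CR31B replicate 4 or DMSO replicate 3 was left out (limma adjusted p from 0.0548 to 0.102). SLC16A3 lost its call when any 1 other than CR31B replicate 2 or 3 was left out (limma adjusted p from 0.068 to 0.116), and NEDD4L without DMSO replicate 4 (limma adjusted p of 0.0532).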

How the data were processed

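Ribosome-protected fragments of IMR32 cells were measured in 4 CR31B and 4 DMSO libraries, grouped by their titles. The authors deposited 1 table of TPM per gene. The submitters' processing notes name cutadapt 3.2, Bowtie2 2.3.4.1, STAR 2.7.1a, RSEM 1.2.28 and DESeq2 1.32.0 with hg38, without roles. The annotation release and the strand setting are not given in the sources used here. DESeq2 was not applied here, since TPM are not counts.

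The 11778 genes averaging 1 TPM or more were fitted as log2(TPM + 1) with limma 3.58.1 (R 4.3.3, eBayes with a trend), treatment as the only term, and Benjamini-Hochberg adjustment over all tested genes at 0.05. The fit was tested on simulated data. Single values were compared with exact permutation tests (two-sided, 70 assignments of the libraries). P-values measure the spread between these libraries. The other steps ran in Python 3.11.15 (pandas 2.3.3, SciPy 1.17.1, NumPy 2.4.6, plots by matplotlib 3.10.9). Gene positions and exon overlaps came from GENCODE 29, version suffix ignored, and reads per gene were estimated from TPM steps in single-transcript genes (28 nt subtracted from length).

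Same-numbered libraries deviated together for replicates 1 to 3 (correlations of 0.333, 0.324 and 0.301). For replicate 4 the correlation was 0.105, below that of CR31B replicate 4 with DMSO replicate 1 (0.134). Correlations between unlike numbers ran from -0.206 to 0.134. Among the CR31B libraries, replicate 4 still had the highest correlation with DMSO replicate 4 (0.105, the next being 0.0868 for CR31B replicate 2). The replicate number was used as a block in an alternative fit, although the pairing of replicate 4 is weaker than that of the others. Other alternatives were 2 other pseudocounts, 2 other filters, 3 other scalings, no trend, and each library left out. The members and gene lists were chosen with earlier results of these data known. All members, genes overlapping them, every called gene among other transporters, the largest called rise and fall of each other list, ATF4, NFE2L2, MYCN and the 5 genes most like SLC3A2 are named, except 1 item that is not reported here. CEBPB, MIOS, SLC16A3, NEDD4L, GCLC, CTNS and SLC1A2 were named after their values were seen, to complete counts.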

Additional observations from a re-analysis of the deposited data

Results flagged for a closer look

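Among 64 groups of 4 values examined, 5 held a library whose gap to the nearest other was large against the group's range, where chance flags about 1 in 20 groups. SLC3A2 was at 201.6 TPM in CR31B replicate 1, where the other CR31B libraries lay between 145.6 and 152.5 TPM. SLC1A4 minus SLC1A5 was -1.07 in CR31B replicate 3, and the other 3 lay between -1.71 and -1.62 on the log2 scale. AC008622.2, antisense to SLC1A5, was at 92.4 TPM in the same library, against 40.23 to 47.83 TPM in the other 3. CHAC1 was at 1.51 TPM in DMSO replicate 1 (others 0.88 to 0.96 TPM). ATF4 was at 106.2 TPM in DMSO replicate 3 (others 172.1 to 181.0 TPM).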

How the results depend on the processing

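Across all genes, 879 passed; 442 passed with no filter beyond a mean above 0 TPM, 1453 with the replicate block, and from 405 (without DMSO replicate 4) to 785 with 1 library left out. Calls were 46.2% higher, and 37.6% without CR31B replicate 1. Of the members, 2 were called higher, 4 higher and 1 lower with the replicate block, 3 after rescaling over protein-coding genes and after quantile normalization, and 1 with log2(TPM + 0.1), with no filter, without the trend and in 7 of the 8 fits that left out a library (from 1 to 2 in all); the remaining one left out CR31B replicate 2. With 1 library left out, SLC7A5 minus SLC3A2 ran from -0.16 to 0.017, reversing without CR31B replicate 2 or DMSO replicate 3. SLC7A11 minus SLC3A2 ran from -0.20 to 0.067, reversing without DMSO replicate 1 or 4, and was 0.12 with log2(TPM + 0.1). SLC1A4 minus SLC1A5 ran from 0.57 (without CR31B replicate 3, no longer past the unadjusted threshold) to 0.81. SLC38A2 minus SLC38A1 ran from -0.10 to -0.25, past that threshold without CR31B replicate 3. SLC7A3 minus SLC7A1 ran from -0.43 to -0.62, past it without CR31B replicate 2, and was -0.54 and past it after rescaling over protein-coding genes. SLC7A3 lies near 0, so this difference mirrors SLC7A1. With all AC008622.2 reads added, an upper limit, SLC1A5 reversed to 0.16 and SLC1A4 minus SLC1A5 was 0.14. Rescaling over protein-coding genes made 54.3% of calls higher. Depth limits SLC7A3 most.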
